A study of Mus musculus with 4 samples.

Results

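The barcodes described here were picked for UMIs of Folr2, Mrc1, Cbr2 or Cd163, genes by which resident macrophages of many mouse tissues are recognised, among immune cells that FACS had taken from digested mammary tumours. A droplet barcode was a member when its raw UMIs (unique molecular identifiers, counted transcripts) passed a set of limits. A called cell needed 500 or more UMIs and 250 or more genes, of which no more than 10% of UMIs could be mitochondrial. The members were chosen by their own counts of a few genes: at least 3 UMIs of the complement genes C1qa, C1qb and C1qc together, and at least 3 of Folr2, Mrc1, Cbr2 and Cd163 together. A member could hold at most 2 UMIs of Cd3d, Cd3e and Cd3g, at most 2 of Cd79a, Cd79b and Ms4a1, and at most 1 of Mki67 and Top2a. In all, 76 of 15319 called barcodes met these limits, 71 of 7875 in the Jagged1/PyMT library and 5 of 7444 in the PyMT library. They were set beside the 1849 other barcodes (1652 Jagged1/PyMT and 197 PyMT) that met every limit except that on Folr2, Mrc1, Cbr2 and Cd163, called the other C1q-positive barcodes below.

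The mice were of the FVB/NJ strain and 12 weeks old, and all of them carried PyMT, the polyoma middle T antigen that drives mammary tumours. Jagged1, in the genotype Jagged1/PyMT, is a ligand that binds Notch receptors on neighbouring cells, and the other genotype is labelled PyMT, or WT/PyMT in the series text. The promoter of the Jagged1 allele, the cells in which it acts and the sort gate are not stated by the labels. The labels give 2 samples a genotype, which the deposited files hold together in 1 matrix with no barcode tied to either. Each genotype was therefore 1 library, no spread between mice could be computed, and no test or p-value is given. The intervals below are 95% intervals that cover counting error only. The Jagged1/PyMT library held 55506773 UMIs and the PyMT library 36012036, and 70 called barcode sequences occurred in both, 1 of them a member.

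Resident macrophages settle in tissues early and often renew locally, whereas tumour macrophages are largely replenished from blood monocytes. FOLR2, the folate receptor beta, and MRC1, the mannose receptor CD206, are endocytic surface receptors of the resident kind in the mouse mammary gland and other tissues. CBR2 is a carbonyl reductase and CD163 the haemoglobin scavenger receptor, and both are used as markers of perivascular and interstitial macrophages. PF4 is a chemokine best known from platelets, and SELENOP is a secreted selenium carrier. C1q, the first component of complement, is made by most tissue and tumour macrophages.

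The start regions of 3 of the genes that chose the members, and of Pf4, are printed because the barcodes richest in the chosen genes all held Pf4 as well. Each covers 250 bases before to 50 bases after an annotated start, from RefSeq on GRCm38.p6, printed on the strand of the gene. Folr2 has a pair of annotated starts, at chr7:101857141-101857440 and chr7:101845282-101845581, both on the minus strand. Mrc1 lies at chr2:14229164-14229463 on the plus strand, Cbr2 at chr11:120731972-120732271 on the minus strand and Pf4 at chr5:90772185-90772484 on the plus strand. Capitals mark matches to TGCTGA or its reverse complement TCAGCA, the core of the element that MAF factors bind, and to GAGGAA or TTCCTC, the core that the macrophage factor PU.1 binds.
Folr2 upstream start: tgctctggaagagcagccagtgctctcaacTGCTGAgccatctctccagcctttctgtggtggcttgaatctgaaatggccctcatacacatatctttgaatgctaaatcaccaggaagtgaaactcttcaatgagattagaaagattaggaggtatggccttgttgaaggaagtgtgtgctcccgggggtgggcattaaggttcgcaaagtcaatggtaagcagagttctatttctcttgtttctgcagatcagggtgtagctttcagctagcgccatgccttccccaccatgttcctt
Folr2 downstream start: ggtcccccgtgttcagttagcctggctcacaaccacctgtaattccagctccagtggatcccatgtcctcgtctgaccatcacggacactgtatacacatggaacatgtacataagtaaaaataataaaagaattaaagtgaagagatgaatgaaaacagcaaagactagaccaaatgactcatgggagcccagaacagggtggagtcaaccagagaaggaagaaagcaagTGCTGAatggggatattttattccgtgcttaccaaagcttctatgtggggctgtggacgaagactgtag
Mrc1: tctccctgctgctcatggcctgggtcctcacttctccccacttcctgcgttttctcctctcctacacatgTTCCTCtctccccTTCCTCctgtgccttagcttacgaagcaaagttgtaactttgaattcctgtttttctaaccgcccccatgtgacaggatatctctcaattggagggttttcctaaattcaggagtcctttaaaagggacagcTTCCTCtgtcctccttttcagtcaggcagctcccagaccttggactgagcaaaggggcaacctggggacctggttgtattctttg
Cbr2: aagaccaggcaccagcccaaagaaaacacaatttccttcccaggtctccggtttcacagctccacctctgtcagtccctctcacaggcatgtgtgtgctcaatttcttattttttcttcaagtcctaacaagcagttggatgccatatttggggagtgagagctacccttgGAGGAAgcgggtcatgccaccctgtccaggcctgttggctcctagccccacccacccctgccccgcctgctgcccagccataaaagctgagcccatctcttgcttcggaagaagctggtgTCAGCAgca
Pf4: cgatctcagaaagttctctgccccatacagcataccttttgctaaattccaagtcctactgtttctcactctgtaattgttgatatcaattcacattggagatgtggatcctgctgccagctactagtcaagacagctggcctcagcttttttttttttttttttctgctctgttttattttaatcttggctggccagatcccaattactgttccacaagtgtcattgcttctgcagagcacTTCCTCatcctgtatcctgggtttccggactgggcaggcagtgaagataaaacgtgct
The MAF core occurred 1 time in each Folr2 start region and 1 time in that of Cbr2, and in 6401 of 32851 start regions of all genes (19.5%). The PU.1 core occurred 3 times for Mrc1, 1 time for Cbr2 and 1 time for Pf4, and in 9289 of all start regions (28.3%). The capitals of the 2 motifs did not overlap. The fourth chosen gene, Cd163, had 0 matches to either core in its start region, and the start regions of F13a1 had 0 to the MAF core. A match describes these letters and is not evidence of binding.

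Within the members, the UMIs of the 4 chosen genes were very unevenly spread. The sum of these UMIs was exactly 3 in 24, 4 in 16 and 5 to 8 in 22 of the 71 Jagged1/PyMT members, and 10 or more in the other 9. Those 9 held 89, 57, 41, 38, 21, 19, 17, 16 and 11 UMIs, which was 309 of the 580 in all (53.3%). The sums of the 5 PyMT members were 15, 5, 5, 3 and 3. Just outside the limit, 57 other C1q-positive barcodes of the Jagged1/PyMT library and 7 of the PyMT library held exactly 2. Among Jagged1/PyMT members 50 held Folr2, 49 Mrc1, 38 Cbr2 and 8 Cd163, and 22 held only 1 of the 4 genes. Of the PyMT members, 4 held only 1 of the 4 genes and the fifth held all 4. These counts restate the rule and are not a result.

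**Figure D1:**
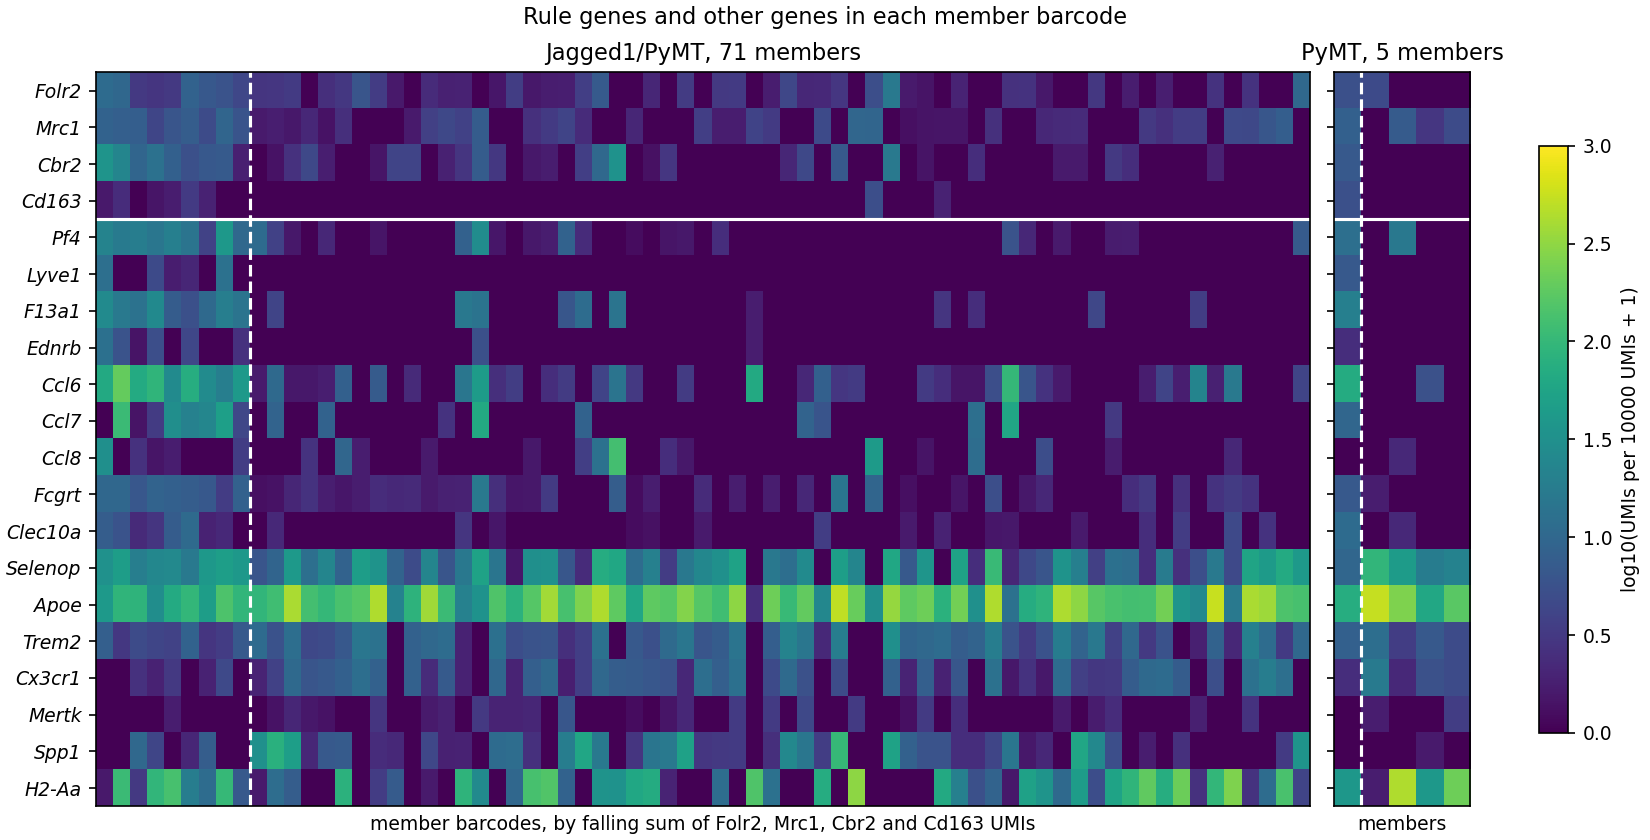
UMIs per 10000 UMIs of the barcode (colour, log10 of the value plus 1) for the 4 chosen genes above the white line and other genes below it, in each of the 71 Jagged1/PyMT members on the left and the 5 PyMT members on the right, ordered by falling sum of the chosen genes. The 9 columns left of the dashed line are the members with 10 or more UMIs of the chosen genes, and Pf4, F13a1 and Ccl6 are filled in all 9.

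The members were checked against macrophage genes that the rule did not use. Csf1r, the receptor of the growth factor CSF-1, was counted in 68 of 71 Jagged1/PyMT members and 5 of 5 PyMT members, Cd68, a lysosomal protein of phagocytes, in 66 and 4, and Adgre1, which encodes F4/80, in 50 and 5. Fcgr1, an Fc receptor gene, was counted in 48 and 3, and Mertk, an uptake receptor gene, in only 28 and 2. In B cell barcodes of the Jagged1/PyMT library (1283, with at least 3 UMIs of Cd79a, Cd79b and Ms4a1 and at most 2 of C1q and of Cd3 genes), Csf1r was counted in 0.779%, Cd68 in 2.03% and Adgre1 in 0.312%. Fcgr1 was counted in 0.468% of them and Mertk in 0%. Selenop was counted in 67 of the 71 and in 5 of the 5, against 4.44% of B cell barcodes in the Jagged1/PyMT and 2.74% in the PyMT library. Pf4 was counted in only 31 of the 71 (43.7%) and 2 of the 5, against 0.0779% of B cell barcodes in the Jagged1/PyMT library. Of the 5 label markers, only Pf4 and Selenop were not used by the rule. Nearly all members thus carried Selenop, and fewer than 1 in 2 carried Pf4. B cell barcodes are not macrophages, these shares are not matched for depth, and the other C1q-positive barcodes also held both genes. Among those of the Jagged1/PyMT library Pf4 was counted in 137 of 1415 with 0 UMIs of the chosen genes and in 44 of 237 with 1 or 2. Their Selenop level is given below.

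Pf4 was concentrated in the members with 10 or more UMIs of the chosen genes, a split that was set after the values had been seen. The 9 Jagged1/PyMT barcodes of this kind held 35, 23, 41, 30, 26, 12, 3, 32 and 11 UMIs of Pf4, in the order of falling sums, and the PyMT one held 8. Summed over barcodes and scaled to the total of the class, as CPM, Pf4 stood at 1651 CPM in these 9, at 111 CPM in the 62 members of 3 to 9 UMIs and at 28.1 CPM in the other C1q-positive barcodes of the same library. At exactly 3 UMIs of the chosen genes Pf4 stood at 45.8 CPM, inside the limit, and at exactly 2 at 45.0 CPM, outside it. Every one of the 9 held Pf4, whereas 22 of the 62 held any.

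F13a1, Fcgrt, Pltp, Gas6 and a pair of lectin genes were highest in the same 9 barcodes. F13a1, the A subunit of coagulation factor XIII, had 44, 22, 29, 55, 9, 4, 10, 15 and 16 UMIs in them, and stood at 1581 CPM, against 69.9 CPM in the 62 and 14.4 CPM in the other C1q-positive barcodes. Fcgrt, the neonatal Fc receptor, had 15, 13, 13, 17, 10, 6, 6, 2 and 9 UMIs and stood at 705 CPM, against 87.7 and 43.5 CPM in the same pair of classes. Pltp, the phospholipid transfer protein, stood at 1224, 417 and 172 CPM in that order, and Gas6, a ligand that bridges dying cells to the MERTK and AXL receptors, at 457, 95.5 and 45.7 CPM. The lectin genes Clec10a and Mgl2 stood at 349 and 225 CPM in the 9, at 30.0 and 17.8 CPM in the 62, and at 15.6 and 5.77 CPM in the other C1q-positive barcodes.

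Some resident genes marked only part of the 9. Lyve1, the hyaluronan receptor of perivascular macrophages, had 19, 0, 0, 8, 1, 1, 0, 10 and 0 UMIs. It had 0 UMIs in the 62 and in the 1652 other C1q-positive barcodes, and 4 UMIs in 1 PyMT member. Over all 71 members Lyve1 was at least 158-fold higher than in the other C1q-positive barcodes, with a floor of 3 counts over that class. Ednrb, an endothelin receptor, had 20, 7, 1, 9, 0, 3, 0, 0 and 2 UMIs and stood at 326 CPM, against 3.33 CPM in the 62 and 0.561 CPM in the other C1q-positive barcodes. Timd4, a phosphatidylserine receptor of long-lived resident macrophages, had 4 UMIs over all 71 members and Vsig4, a complement receptor of such cells, had 2. Cd209f and Cd209g, lectin genes of the same list, had 0 UMIs in all 76 members, and Fcna, a ficolin, had 16 UMIs in 10 Jagged1/PyMT members. Genes of monocytes, given as a list below, were counted in the 9 as well. Ccr2, a monocyte receptor, had 1, 7, 4, 3, 7, 0, 0, 0 and 4 UMIs in them. S100a6, of the same monocyte list, had 41, 56, 50, 53, 8, 20, 4, 1 and 12 UMIs.

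The chemokine genes Ccl6, Ccl7, Ccl2 and Ccl9, whose products attract monocytes and other myeloid cells, were also highest in the 9. Ccl6 had 109, 280, 159, 194, 36, 65, 28, 15 and 48 UMIs and stood at 7238 CPM, against 530 CPM in the 62 and 193 CPM in the other C1q-positive barcodes. Ccl7 had 0, 155, 1, 5, 40, 18, 24, 40 and 4 UMIs and stood at 2224, 245 and 72.5 CPM, so that 1 barcode held most of its UMIs. Ccl2 stood at 1806, 365 and 212 CPM, and Ccl9 at 1108, 222 and 90.3 CPM. Ccl24, an eotaxin, had 9 UMIs in 5 of the 9, 14 in 2 of the 62 and 0 in the other C1q-positive barcodes.

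Several genes that are high in tumour-associated macrophages were lower in the 9. Apoe, the lipid carrier that is among the highest genes of tumour macrophages, had 69, 128, 206, 61, 93, 87, 48, 118 and 110 UMIs, or 7130 CPM, against 17264 CPM in the 62 and 16327 CPM in the other C1q-positive barcodes. Cx3cr1, the fractalkine receptor, had 0, 0, 4, 2, 3, 0, 1, 3 and 0 UMIs and stood at 101 CPM, against 490 and 420 CPM. Trem2, a lipid receptor, stood at 411, 742 and 533 CPM, and Spp1, osteopontin, at 287, 1152 and 971 CPM. Tgfbr1, a TGF-beta receptor subunit, stood at 23.2, 208 and 206 CPM. C1qa, which the rule used, stood at 2860, 4887 and 4532 CPM. For these genes the 62 members of 3 to 9 UMIs were at or above the other C1q-positive barcodes, and the 9 were below both.

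**Figure D2:**
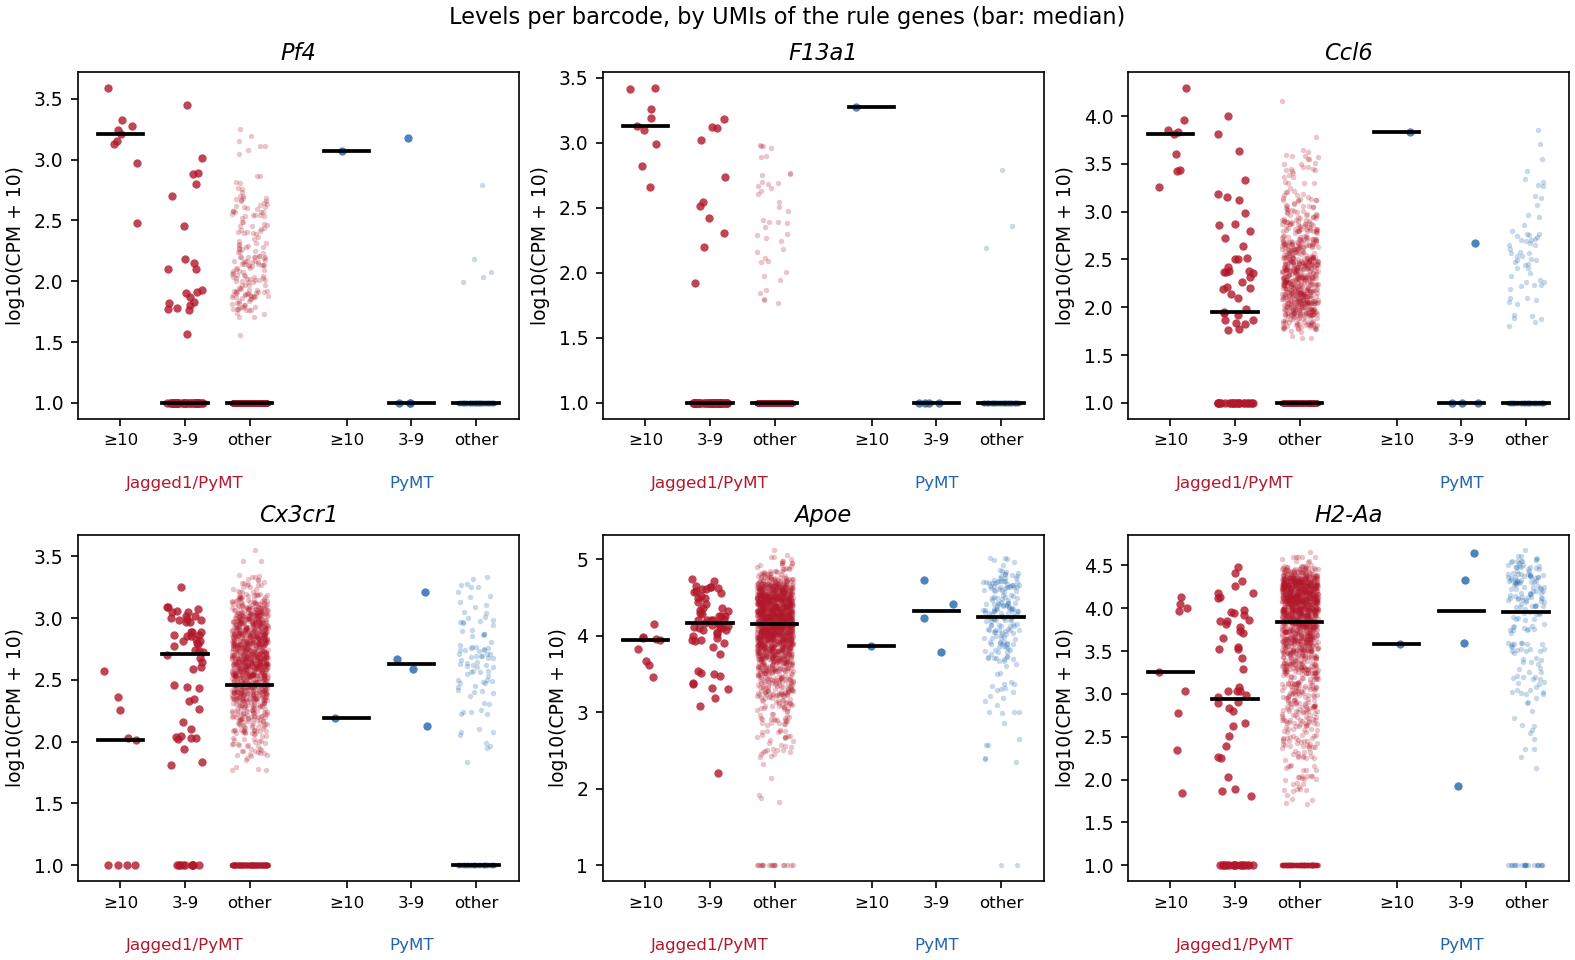
Level per barcode, as log10 of CPM plus 10, of 6 genes in members with 10 or more UMIs of the chosen genes, members with 3 to 9, and other C1q-positive barcodes, for Jagged1/PyMT on the left and PyMT on the right of each panel; points are barcodes and bars medians. The 9 Jagged1/PyMT members on the far left are high for Pf4, F13a1 and Ccl6 and low for Cx3cr1, while the 62 members beside them spread over the range of the other C1q-positive barcodes.

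The same genes were high in called barcodes that held 10 or more UMIs of the chosen genes but failed another limit. There were 50 of these in the Jagged1/PyMT library and 9 in the PyMT library, so the 10 members of this kind were the smaller part. Of the 50, 10 held fewer than 3 UMIs of C1q. Among the rest 35 held more than 2 UMIs of Cd3 genes, 17 more than 2 of the B cell genes and 3 more than 1 of the cycling genes, with some failing several limits. In the 50, Pf4 stood at 566 CPM and was counted in 46, F13a1 at 939 CPM in 47, Ccl6 at 4938 CPM in 49, Lyve1 at 125 CPM in 21 and Ednrb at 149 CPM in 29. Apoe stood at 6614 CPM and Cx3cr1 at 71.9 CPM in them. Retnla, a secreted protein of alternatively activated macrophages, stood at 2125 CPM in 24 of the 50, Cd209f at 225 CPM in 11 and Ccl24 at 162 CPM in 31. In the 9 PyMT barcodes of this kind Pf4 stood at 299 CPM in 6, F13a1 at 384 CPM in 7 and Ccl6 at 3358 CPM in all 9. Trac, the constant part of the T cell receptor alpha chain, was counted in 36 of the 50 and stood at 125 CPM, against 15.5 CPM in the 9 Jagged1/PyMT members of 10 or more. Whether the 50 hold pairs of cells was not tested.

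The members made up 4.12% of the C1q-positive barcodes under the limits in the Jagged1/PyMT library (71 of 1723, exact binomial interval 3.23% to 5.17%) and 2.48% in the PyMT library (5 of 202, 0.808% to 5.68%). The ratio was 1.66, with an interval of 0.680 to 4.07 by a log-normal approximation, so a difference in either direction lay within counting error. Of all called barcodes the members were 0.902% in the Jagged1/PyMT library and 0.0672% in the PyMT library, a ratio of 13.4 (5.42 to 33.2). The C1q-positive barcodes under the limits were themselves 21.9% of called barcodes in the Jagged1/PyMT library and 2.71% in the PyMT library, a ratio of 8.06. The larger gap among all called barcodes thus moved with the whole C1q-positive class. With the lymphocyte and cycling limits lifted, which was tried after the data had been seen, the shares were 5.97% (196 of 3282) and 5.58% (28 of 502) and their ratio 1.07 (0.729 to 1.57).

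Depth moved with membership. The median member held 13922 UMIs in the Jagged1/PyMT library and 8092 in the PyMT library, against 6010.5 and 2786 in the other C1q-positive barcodes. In the Jagged1/PyMT library the members' share of C1q-positive barcodes was 0.792% (3 of 379) from 500 to 2500 UMIs, 1.32% (5 of 378) to 5000, 2.50% (10 of 400) to 10000, 7.98% (39 of 489) to 20000 and 18.2% (14 of 77) above. In the PyMT library it was 0 of 91, which allows a share of up to 3.30% by a floor of 3 counts and 3.97% by the exact interval, 0 of 40, which allows up to 7.5% and 8.81%, then 3 of 37, 2 of 33 and 0 of 1. When each barcode was thinned to 1000 UMIs and the rule applied to what was left, 13 of 2471 barcodes in the Jagged1/PyMT library (0.526%) and 2 of 260 in the PyMT library (0.769%) were members, a ratio of 0.684 (0.155 to 3.01). Thinning also lowered the counts behind the T cell, B cell and cycling limits, so barcodes that failed them at full depth could enter. The C1q-positive class therefore grew from 1723 and 202 barcodes, and these shares are not of the same barcodes as those above. As a measure of free RNA, 0 of 1283 B cell barcodes of the Jagged1/PyMT library and 0 of 1387 of the PyMT library reached 3 UMIs, which allows up to 0.234% and 0.216% by the same floor, or 0.287% and 0.266% by the exact interval. Any UMI of the chosen genes was counted in 0.234% and 0.0721% of B cell barcodes, against 17.9% and 12.4% of C1q-positive ones. The median B cell barcode held 3186 and 3490 UMIs, against 6322 and 2904.5 in C1q-positive barcodes.

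**Figure D3:**
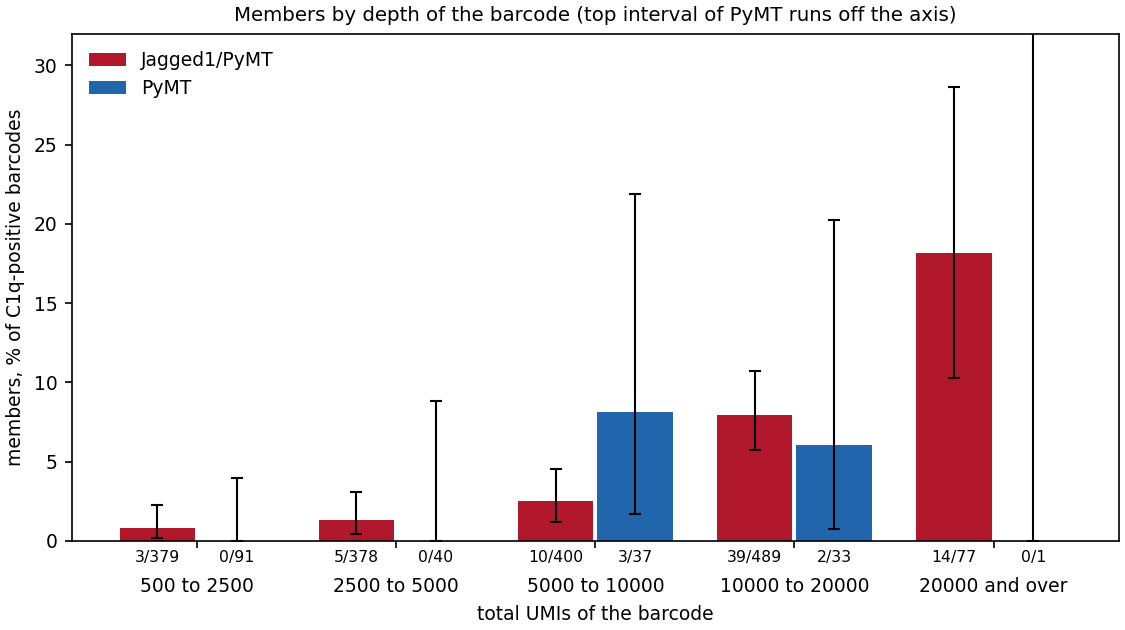
Members as a percent of C1q-positive barcodes in each range of UMIs per barcode, for Jagged1/PyMT left of PyMT, with exact binomial 95% intervals and the counts below the axis. The Jagged1/PyMT share is 0.792% in the lowest range and 18.2% in the highest, and the PyMT interval of the highest range, which rests on 1 barcode, runs off the axis.

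Markers of other cell types were counted in the members beside every level given here. A barcode was taken to hold another cell type's transcripts when it had at least 2 UMIs of any list for another cell type. Any UMI of the rule's T and B cell genes (Cd3d, Cd3e, Cd3g, Cd79a, Cd79b and Ms4a1) also sufficed, as in 15 Jagged1/PyMT members and 1 PyMT member. Such barcodes made up 56 of the 71 Jagged1/PyMT members (78.9%) and 5 of 5 PyMT members, against 48.2% of the other C1q-positive barcodes in each library. This count is of raw UMIs, and members held more UMIs in all. The B cell list, which holds Cd37, a tetraspanin that macrophages also express, was behind 41 of the 56, while Pax5, a transcription factor that defines B cells, was at 0 in the Jagged1/PyMT members. Summed and scaled, the B cell list stood at 135 CPM in Jagged1/PyMT members and 121 CPM in the other C1q-positive barcodes. The summed T cell list stood at 107 CPM in Jagged1/PyMT members and 103 CPM in the other C1q-positive barcodes, with 3 UMIs of Trac and 0 of Trbc1 in members, and the neutrophil list at 4208 and 4731 CPM. Trbc2, another T cell receptor constant gene, was counted in some members, with up to 3 UMIs in a barcode. At least 2 UMIs of the T cell list were held by 23 Jagged1/PyMT members (32.4%), against 15.5% of the other C1q-positive barcodes. For the neutrophil list these were 18 members (25.4%) against 11.1%, and for the dendritic cell list 9 members (12.7%) against 7.75%. Summed and scaled, the dendritic cell list stood lower in members, at 55.3 against 160 CPM. The epithelial list stood at 763 CPM in members, against 48.1 CPM, and 12 members (16.9%) held at least 2 of its UMIs, against 4.0%. A single member held 600 of the 615 UMIs of Wfdc18, a milk protein gene, and 66 of the 73 of Krt18, a keratin. The platelet list, which matters because Pf4 is a platelet gene, was at 0 for all 5 genes in members of both libraries. Except where a value is given without the barcodes concerned, the part of these transcripts in the results was not tested.

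Across genes, members were set against the other C1q-positive barcodes within each library. A gene was compared when the mean of both classes predicted at least 20 UMIs in the smaller class, and counted as higher or lower past 1.5-fold. A gene can pass this filter through the class where it is high, so the counts describe and do not test. In both libraries at once 8 of 364 genes were higher (2.2%) and 4 were lower (1.1%). In the Jagged1/PyMT library alone 404 of 5066 were higher (7.97%) and 124 lower (2.45%), and with the median of all ratios set to 1 these were 291 and 183. In the PyMT library alone 58 of 365 were higher (15.9%) and 57 lower (15.6%). The median log2 ratio of all genes was 0.09 in the Jagged1/PyMT and -0.09 in the PyMT library.

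The 8 genes higher in both libraries were Ccl6, Pltp, Emp1, Lyz2, Klf4, Klf2, Selenop and Anxa1. Ccl6 stood at 1370 CPM in Jagged1/PyMT members and 193 CPM in the other C1q-positive barcodes, a log2 ratio of 2.83, and its log2 ratio in the PyMT library was 1.5. There 47 of its 54 member UMIs lay in 1 barcode, and without that barcode the ratio was -1.24. Pltp had log2 ratios of 1.59 and 1.77 in the Jagged1/PyMT and PyMT libraries, and Selenop of 0.65 and 1.47. The Selenop values were 1985 CPM in Jagged1/PyMT members against 1268 CPM, and 4066 CPM in PyMT members against 1468 CPM. Klf4 and Klf2, a pair of Kruppel-like transcription factors, had log2 ratios of 0.95 and 0.69 in the Jagged1/PyMT library and of 2.82 and 1.52 in the PyMT library. Emp1, a membrane protein, had 1.37 and 2.48, Anxa1, the phospholipid-binding annexin A1, 0.62 and 2.74, and Lyz2, the myeloid lysozyme, 0.96 and 0.68. In PyMT members 86 of the 110 UMIs of Anxa1 lay in 1 barcode. Without the PyMT barcode that held most of the gene, the PyMT ratios of Selenop and Lyz2 were 0.57 and 0.24, under 1.5-fold. Without the Jagged1/PyMT barcode that held most of the gene, the Jagged1/PyMT ratios of Klf2, Selenop and Anxa1 were 0.58, 0.53 and 0.52, also under 1.5-fold. Without barcodes that held another cell type's transcripts, 15 Jagged1/PyMT members and no PyMT member were left. The Jagged1/PyMT ratios were then 0.15 for Pltp, 0.38 for Klf4, 0.15 for Selenop and 0.54 for Anxa1, all under 1.5-fold, and 1.49 for Ccl6, 0.99 for Lyz2 and 1.45 for Klf2, while Emp1 had too few UMIs to be compared.

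The 4 genes lower in both libraries were Il1b, Ccl3, Epsti1 and Ccl5. Il1b, the cytokine IL-1 beta, stood at 2458 CPM in Jagged1/PyMT members against 3983 CPM in the other C1q-positive barcodes, and at 2188 CPM in PyMT members against 4033 CPM. Ccl3 stood at 431 against 717 CPM in the Jagged1/PyMT library and at 58.1 against 932 CPM in the PyMT library, where members held 3 UMIs. Without barcodes that held another cell type's transcripts the Jagged1/PyMT log2 ratio of Il1b was -0.27, against -0.70 with them. Epsti1, an interferon-induced gene, had log2 ratios of -1.35 and -2.79, and the Jagged1/PyMT one was -0.31 without those barcodes, on too few UMIs to be compared there. The fourth, Ccl5, is a T cell and NK cell chemokine and had 25 UMIs in Jagged1/PyMT members and 0 in PyMT members. Its 364 CPM in the other C1q-positive barcodes of the Jagged1/PyMT library lay under its 461 CPM in free RNA (barcodes under 100 UMIs), so it is read no further.

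In the Jagged1/PyMT library F13a1 and Pf4 had the largest ratios by the bound nearest 0 among genes found in at least 10 members. The log2 ratio of F13a1 was 4.17 (3.89 to 4.45) and was 2.28 without the 9 members of 10 or more UMIs of the chosen genes. That of Pf4 was 3.43 (3.21 to 3.66) and was 1.98 without the 9. Against other barcodes within the members' middle range of UMIs the log2 ratios were 4.52 for F13a1 and 3.84 for Pf4. Ccl7, Ccl8 and Ccl6 followed with 2.77, 2.76 and 2.83, and with 1.76, 2.24 and 1.46 without the 9. Further genes of this group were Nxpe5 (2.96), Tppp3 (2.72), a tubulin-binding protein, Dok2 (2.72), an adaptor of receptor kinases, Hal (2.47), histidine ammonia-lyase, and Clec10a (2.16). Epcam, an epithelial adhesion gene, had 2.11 with 32 of its 45 UMIs in 1 member, and 0.35 without that barcode.

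The genes with the lowest ratios in the Jagged1/PyMT library included genes of dendritic cells and of antigen presentation. Of the dendritic cell list 2 genes could be compared and both were lower, against 2.45% of all genes. Fscn1, the actin bundler fascin of mature dendritic cells, stood at 4.86 CPM in members against 75.3 CPM, and Cd207, the langerin of Langerhans cells and some dendritic cells, at 16.5 against 71.1 CPM. Dcstamp, a gene of cell fusion, had a log2 ratio of -1.60 and Areg, the growth factor amphiregulin, of -2.86, which rested on 5 member UMIs. The class II genes H2-Aa, H2-Ab1 and Cd74 had -1.14, -1.13 and -1.14.

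The list of resident macrophage genes was higher in members than in other C1q-positive barcodes in the Jagged1/PyMT library, while few of its genes could be compared in the PyMT library. Of its 22 genes in the files, none of them used by the rule, 14 could be compared in the Jagged1/PyMT library and 13 were higher, against 7.97% of all genes, with a median log2 ratio of 1.02. Beyond F13a1, Pf4, Pltp and Selenop these were Fcgrt (1.92), Ltc4s (1.63), the leukotriene C4 synthase, Gas6 (1.62), Maf (1.07), a transcription factor of resident macrophages, Colec12 (0.97), Tmem37 (0.87), Stab1 (0.84), the scavenger stabilin-1, Wwp1 (0.81) and Ninj1 (0.66). In the PyMT library 4 genes could be compared, 2 of them higher, against 15.9% of all genes, with a median of 0.88. These 2 were Pltp and Selenop, and Selenop was under 1.5-fold without the PyMT barcode that held most of it. Without the 9 members of 10 or more the Jagged1/PyMT median was 0.93, so the list was not carried by them alone. Per barcode, the summed list had a median of 4879 CPM over Jagged1/PyMT members and 2748 CPM over the other C1q-positive barcodes, and ranged from 1160 to 19693 CPM in members. In the 5 PyMT members it stood at 10442, 13720, 8527, 2948 and 3917 CPM, against a median of 2978 CPM.

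Of 10 monocyte-recruiting chemokine and growth factor genes, 8 could be compared in the Jagged1/PyMT library and 5 were higher, against 7.97% of all genes. The median log2 ratio of the list was 1.63, and 1.04 without the 9. The 5 were Ccl6, Ccl7, Ccl8, Ccl9 (1.88) and Ccl2 (1.37). Ccl12, a mouse CCR2 ligand, had 0.40 and Csf1 had 0.32, while Cxcl16, a ligand of CXCR6 on T cells, was lower with -0.61. Per barcode the summed list had a median of 1478 CPM in Jagged1/PyMT members and 1055 CPM in the other C1q-positive barcodes, and reached 42070 CPM in a member.

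Genes of monocytes and young monocyte-derived cells were also higher in Jagged1/PyMT members. Of 15, 13 could be compared and 8 were higher, against 7.97% of all genes. The median was 1.0, which was 0.53 without the 9 and 0.17 without barcodes that held another cell type's transcripts. S100a4 and S100a6, calcium-binding proteins, had 1.71 and 1.51, Fn1, fibronectin, 1.38, Ifitm3, an antiviral membrane protein, 1.0 and Ccr2, the receptor that brings monocytes out of the marrow, 0.81. Ly6c2, the defining gene of inflammatory monocytes, had 45 UMIs, 40 of them in 1 member, and its log2 ratio of 1.94 was -1.20 without that barcode. For PyMT 3 genes could be compared and none was higher.

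The class II antigen presentation genes were lower in Jagged1/PyMT members as a block. Of 10 in the files 8 could be compared and all 8 were lower, against 2.45% of all genes, with a median log2 ratio of -0.93 that lay between -1.40 and -0.78 under every alternative tried. H2-Aa stood at 3855 CPM in members and 8495 CPM in the other C1q-positive barcodes, Cd74, the invariant chain, at 13890 and 30662 CPM, and H2-Ab1 at 2422 and 5282 CPM. The chaperone genes H2-DMb2, H2-DMa and H2-DMb1 had -0.95, -0.60 and -0.59, and Ciita, the master regulator of class II genes, -0.85. The spread among members was wide: the summed list ranged from 0 to 187820 CPM with a median of 6550 CPM, against a median of 36464 CPM in the other C1q-positive barcodes. The 9 members of 10 or more held 1, 158, 5, 198, 183, 16, 11, 83 and 7 UMIs of H2-Aa, so high and low barcodes both occurred among them. In the PyMT library 3 class II genes could be compared, none was past 1.5-fold and the median was 0.01. The 5 PyMT members stood at 17404, 1038, 131241, 31774 and 106886 CPM for the list, against a median of 38344 CPM, on both sides of the other C1q-positive barcodes. Whether the libraries differ in this could not be tested.

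Smaller groups moved with part of their genes in the Jagged1/PyMT library, where 7.97% of all genes were higher. Of 12 genes for the uptake of dying cells 9 could be compared and 5 were higher, with a median of 0.80, among them Lrp1 (0.86) and Mertk (0.80), which are uptake receptors, while Axl had -0.48. That median was -0.11 without barcodes that held another cell type's transcripts. Of 18 scavenger receptor and lectin genes 11 could be compared and 6 were higher, with a median of 0.59, among them Mgl2 (2.92), Clec4a1 (1.39), Msr1 (0.86) and Clec4n (0.62). Arg1, arginase 1, stood at 184 CPM in members against 16.8 CPM, with 189 UMIs in 9 members, 87 of them in 1. Retnla had 377 UMIs in 4 members. Of 17 lysosomal genes compared 3 were higher, the cathepsins Ctsd (0.94), Ctsl (0.88) and Ctsb (0.63). Hmox1, the haem-degrading haem oxygenase, had 2.13, with 821 of its 1413 UMIs in 1 member, and 0.92 without it.

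The lipid-associated and glycolysis lists are given beside all genes of the Jagged1/PyMT library, of which 7.97% were higher and 2.45% lower. Of 12 lipid-associated genes compared in the Jagged1/PyMT library 1 was higher, near the share of all genes. It was Fabp5 (0.98), a fatty acid carrier, while Trem2 had 0.39, Spp1 0.10 and Apoe -0.03. Of 19 glycolysis and hypoxia genes compared none was past 1.5-fold, with a median of 0.24. Of 11 class I genes compared 1 was lower. Of 14 inflammatory genes 4 were lower, against 2.45% of all genes, and none higher, with a median of -0.16. Among PyMT members 6 of 8 inflammatory genes were lower, against 15.6% of all genes, with a median of -1.81. Per barcode the summed inflammatory list ran the other way. Its median was 10319 CPM in Jagged1/PyMT members against 7288 CPM in the other C1q-positive barcodes, and 4325 CPM in PyMT members against 1372 CPM, so no single direction holds for this list.

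**Figure D4:**
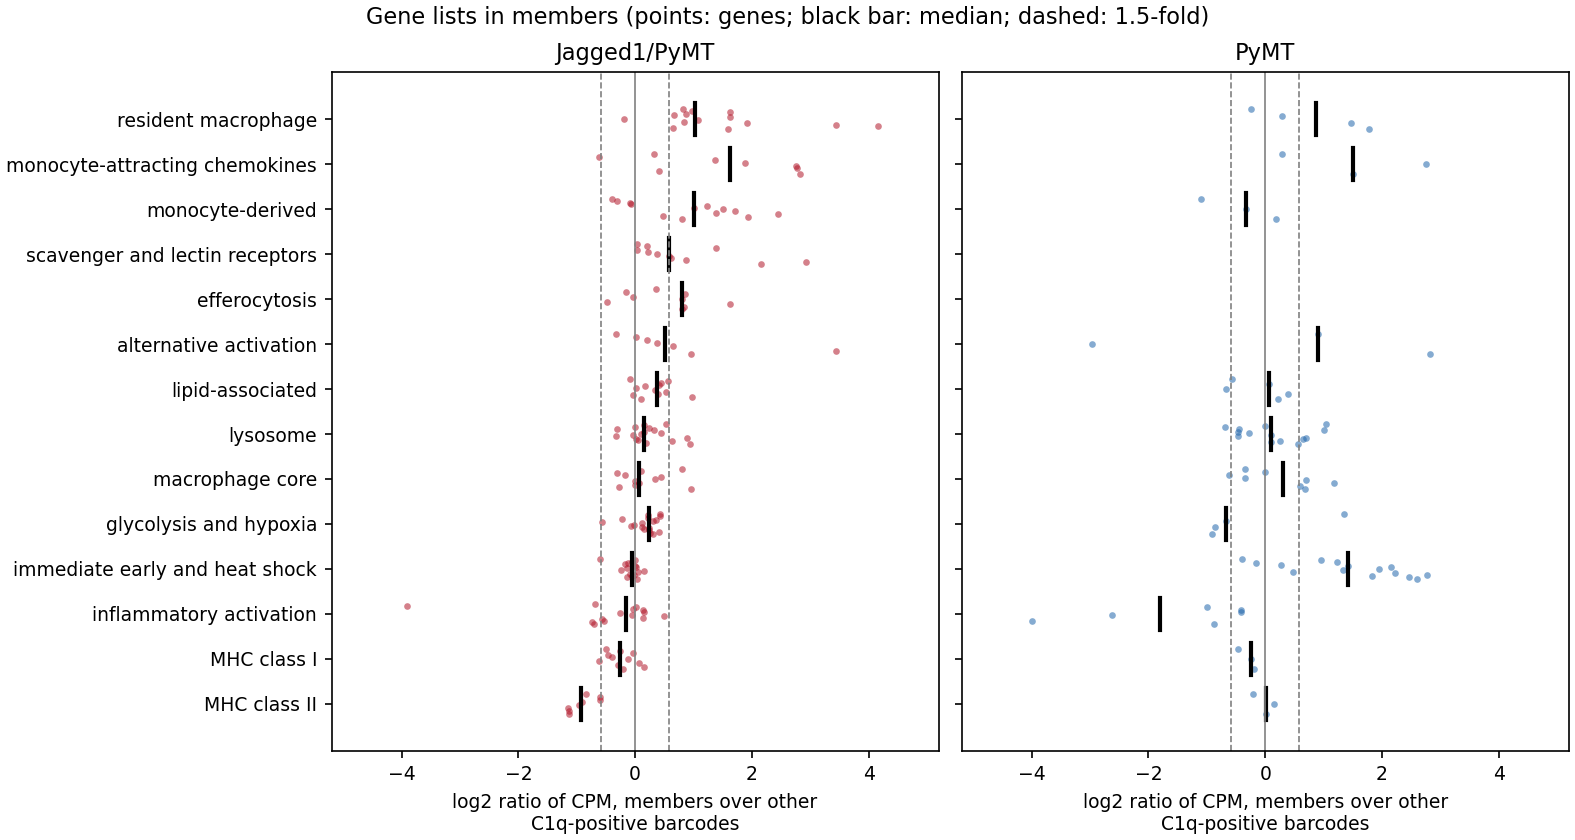
Log2 ratio of CPM, members over other C1q-positive barcodes, for the genes of 14 lists, with Jagged1/PyMT on the left and PyMT on the right; points are genes, black bars medians and dashed lines 1.5-fold. Of the class II genes 8 of 8 lie below the lower dashed line in Jagged1/PyMT and 0 of 3 in PyMT, and of the resident genes 13 of 14 and 2 of 4 lie above the upper line.

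Between genotypes, 71 Jagged1/PyMT members were set against 5 PyMT members, which held 1029845 and 51650 UMIs. Of 377 genes that could be compared 80 were higher in Jagged1/PyMT members (21.2%) and 66 lower (17.5%), with the median of all ratios at 0.13, and these were 67 and 84 with that median set to 1. For the same genes in the other C1q-positive barcodes 27 were higher and 16 lower.

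Glycolysis genes stood higher in Jagged1/PyMT members and, to a smaller degree, in the other C1q-positive barcodes of that library. Of 9 compared 8 were higher, against 21.2% of all genes, with a median log2 ratio of 1.79. In the other C1q-positive barcodes 8 of the 9 were higher as well, against 27 of all 377 genes, with a median of 0.78. Tpi1, triosephosphate isomerase, stood at 741 CPM in Jagged1/PyMT members and 116 CPM in PyMT members, Pkm, pyruvate kinase, at 1381 and 348 CPM, Eno1, enolase, at 1340 and 387 CPM, and Ldha, lactate dehydrogenase, at 1182 and 348 CPM. Gapdh was the exception with 821 and 1162 CPM. The PyMT values rest on 6 UMIs of Tpi1, 18 of Pkm, 20 of Eno1 and 18 of Ldha. Per barcode the summed list stood at 3046, 7416, 1483, 4258 and 1137 CPM in the PyMT members, inside the range of Jagged1/PyMT members, which ran from 678 to 36395 CPM with a median of 5960 CPM.

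Immediate early and heat shock genes, which many stimuli induce within minutes to hours, went the other way in members. Of 15 compared 10 were lower in Jagged1/PyMT members, against 17.5% of all genes, and none higher, with a median log2 ratio of -0.88. In the other C1q-positive barcodes 6 of the 15 were higher, against 27 of all 377 genes, with a median of 0.45. Fos stood at 1957 CPM in Jagged1/PyMT members and 5131 CPM in PyMT members, against 1971 and 755 CPM in the other C1q-positive barcodes. Jun stood at 1159 and 2614 CPM in members, against 1238 and 561 CPM, and the heat shock gene Hspa1b at 247 and 1142 CPM, against 243 and 187 CPM. The 5 PyMT members stood at 32197, 11273, 52274, 56538 and 10865 CPM for the list, 3 of them above and 2 below the Jagged1/PyMT members' median of 15242 CPM, and all inside their range of 626 to 78924 CPM. Egr1 had a log2 ratio of -1.41, and of -0.02 without the PyMT member that held 41 of its 56 UMIs.

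**Figure D5:**
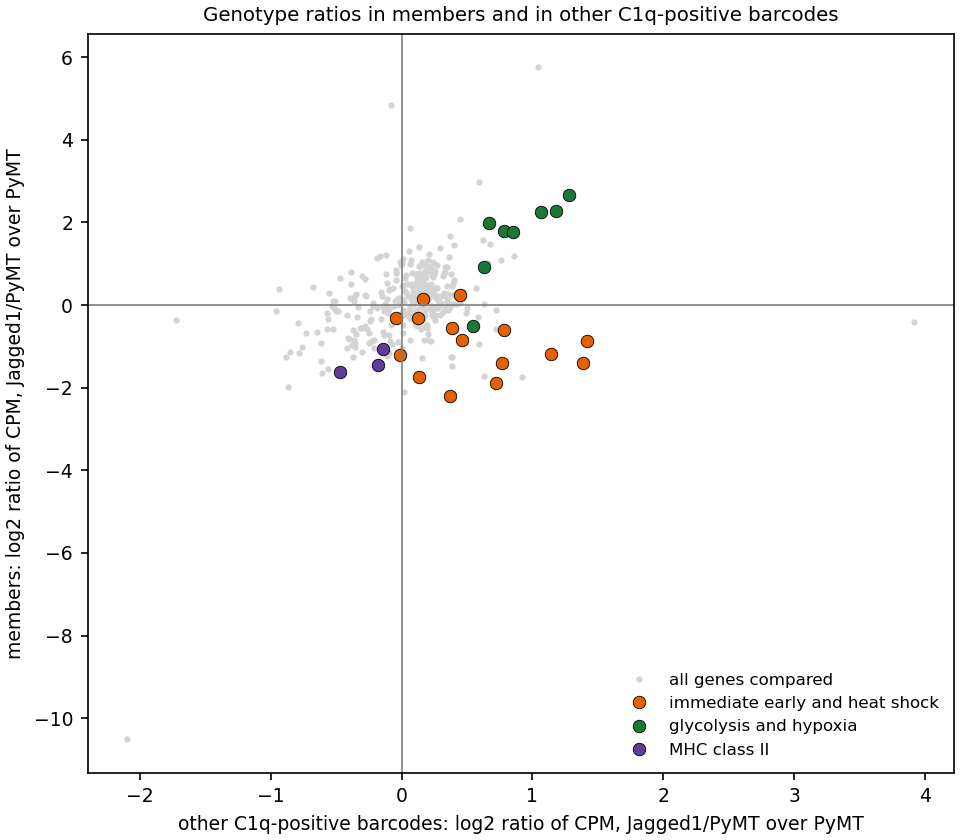
Log2 ratio of CPM, Jagged1/PyMT over PyMT, for 377 genes in members (vertical) and in the other C1q-positive barcodes (horizontal), with 3 lists coloured. Glycolysis and hypoxia genes lie mostly in the upper right, immediate early and heat shock genes mostly in the lower right, and the 3 class II genes in the lower left.

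The other named differences between genotypes rested on few PyMT UMIs or barcodes. H2-Aa stood at 3855 CPM in Jagged1/PyMT members and 11830 CPM in PyMT members, a log2 ratio of -1.62 that was -0.61 without 1 PyMT barcode, against -0.47 in the other C1q-positive barcodes. Spp1 stood at 1044 CPM in Jagged1/PyMT members, against 1 UMI in PyMT members, and Ccl4, a chemokine, at 1663 CPM, against 3 UMIs in 1 PyMT barcode. Fabp5 stood at 741 and 174 CPM and Hmox1 at 1372 and 174 CPM. Most of the Jagged1/PyMT UMIs of Hmox1 lay in a pair of members, which held 821 and 236. Cxcl13, a B cell chemokine, had 73 UMIs in 1 PyMT member and 1 UMI in Jagged1/PyMT members. Anxa1 had a log2 ratio of -2.10, and of -0.41 without 1 PyMT barcode. Each of these genotype ratios rests on 5 PyMT barcodes from pooled samples.

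Notch pathway genes were near the limit of counting in the members. Jag1 had 10 UMIs in 8 Jagged1/PyMT members, or 9.71 CPM, and 0 UMIs in PyMT members, against 10.3 and 15.4 CPM in the other C1q-positive barcodes. A count of 0 among 51650 UMIs cannot show a level below those. Notch1 stood at 22.3 CPM in Jagged1/PyMT members and 13.8 CPM in the other C1q-positive barcodes, and Notch2 at 26.2 and 20.3 CPM. Of 5 Notch pathway genes compared in the Jagged1/PyMT library none was past 1.5-fold, with a median of -0.02. Notch1 had too few UMIs to be compared and is not among the 5.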

How the data were processed

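Single-cell RNA of sorted immune cells was counted with 10x Genomics 3' reagents, per the labels' protocols. The authors deposited raw UMI counts for 31053 features and 737280 listed barcodes in each of 2 matrices. Cell Ranger 3.0.2 made them, per the file headers and per the submitters' processing notes. The counts are neither normalised nor filtered for cells. The genome build is not given in the sources used here, nor is the aligner or annotation. A list of 737280 barcodes belongs to an older kit than the v3.1 kit the labels name.

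UMIs were summed per class and given as CPM with Python 3.11.15, scanpy 1.11.5 and scipy 1.17.1. CPM ratios have exact conditional binomial intervals, shares exact Clopper-Pearson intervals and ratios of shares log-normal ones, all for counting error only. For a gene at 0 in a class, 3 counts were used there as a floor. Scrublet's own threshold marked 0% of Jagged1/PyMT and 0.0403% of PyMT barcodes, which is too few for a working caller. An alternative left out the barcodes with the highest scores up to the expected share (496 and 443 barcodes). They held 3 Jagged1/PyMT members and 1 PyMT member. Barcodes under 100 UMIs served as free RNA.

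The members, the 32 gene lists and the comparisons were chosen with earlier results of these data known. Genes were named by rank of the interval bound nearest 0, at most 15 a direction across both libraries and 10 between genotypes, leaving out genes under their free RNA level, plus up to 5 a list and a fixed set. The 20 a direction of the Jagged1/PyMT library alone, found in at least 10 members where higher, the split at 10 UMIs, and single genes such as Mgl2, Ctsd, Retnla, Ednrb, Tgfbr1 and Trac, and list members beyond 5, were added after their values were seen. Ratios and intervals were tested on simulated Poisson counts. Alternatives changed the cell filters, the limits of the rule, the depth, the scaling and the expected UMIs, or left out single barcodes.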

Additional observations from a re-analysis of the deposited data

How the results depend on the processing

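No paired analysis was possible because both samples of a genotype share 1 matrix, so no library could be left out either. The members' share ratio between genotypes ranged from 0.684 to 2.33 over all settings that gave one, each time within the counting interval of the 1.66 reported. In both libraries 8 of 364 genes compared were higher in members. This was 3 of 224 at no more than 5% mitochondrial UMIs, 5 of 319 without top Scrublet scores and 1 of 23 after thinning to 1000 UMIs. It was 16 of 364 with the mean of per-barcode CPM, 14 of 716 at 10 expected UMIs and 3 of 158 at 50. Without the members of 10 or more UMIs of the chosen genes it was 3 of 318. The number lower in both, 4 of 364, was 1 of 224, 7 of 319 and 0 of 23 in the first 3 of these settings. It was 10 of 364 within the middle UMI range, 8 of 716 at 10 expected UMIs and 2 of 158 at 50. In the Jagged1/PyMT library alone, 404 higher and 124 lower of 5066 genes became 97 and 56 of 1100 without barcodes holding another cell type's transcripts, 41 and 23 of 506 after thinning, 725 and 266 of 7063 at 10 expected UMIs and 143 and 47 of 2591 at 50. Between genotypes, 80 higher and 66 lower of 377 genes became 1 and 7 of 24 after thinning, 177 and 125 of 740 at 10 expected UMIs, 27 and 29 of 162 at 50, and 53 of 217 genes were higher within the middle UMI range. The number of genes that could be compared differed between these settings. Of the gene lists, 8 had a median past 1.5-fold, among them the epithelial (3.15) and dendritic cell (-2.88) lists. The scavenger and lectin list, at 0.59, lay at the limit. The number was 5 without barcodes holding another cell type's transcripts, after thinning, and at 50 expected UMIs. The first of these settings leaves barcodes out by their UMIs of the epithelial and dendritic cell lists, so few UMIs of those lists could remain in it. Of 280 list medians under alternatives 265 stayed within 1.5-fold of the value reported. Among medians past 1.5-fold 1 changed sign, that for the uptake of dying cells, at -0.11 without barcodes holding another cell type's transcripts. Smaller medians changed sign too. Without the same barcodes that of the inflammatory list went from -0.16 to 0.40, and that of interferon response genes from -0.02 to 1.05. Of 561 values of single genes 365 stayed within the counting interval. Changes of sign included Acod1, at 0.13 against other barcodes of the middle UMI range, and Ly6c2, at -1.20 without 1 barcode. The PyMT ratio of Ccl6, given above, also changed sign without 1 barcode. The cause of these changes was not tested.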
